A study of Homo sapiens with 6 samples.

Results

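TRAIL, the death receptors it and the FAS ligand bind, and the proteins that assemble around those receptors were followed as 10 genes in C4-2B-ENZR cells, a human prostate cancer cell line known for growing despite enzalutamide, a drug against prostate cancer. The genes were chosen by symbol: TNFSF10, TNFRSF10A, TNFRSF10B, TNFRSF10C, TNFRSF10D, FAS, FADD, CASP8, CASP10 and CFLAR. All 10 were listed among the 17356 gene symbols of every library, and all 10 were among the 16548 genes that passed the filter on low values. RNA-seq libraries came from cells given a negative control siRNA (NC, 3 libraries) or an siRNA to the spindle kinesin gene KIF15 (siKIF15, 3 libraries). Cells of both groups were the same line, grown in the same serum-containing medium, and no label states that enzalutamide was in the medium or how long after transfection RNA was taken. No label ties the libraries to separate cultures; p-values thus reflect the spread between these 6 libraries alone, and that spread may be technical.

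TRAIL, encoded by TNFSF10, is a death ligand of the tumour necrosis factor superfamily, known as an interferon-inducible gene and as a trigger of apoptosis in many tumour lines. It binds the signalling receptors encoded by TNFRSF10A and TNFRSF10B, whose intracellular death domains recruit the adaptor FADD, which in turn recruits the initiator proteases caspase 8 and caspase 10. TNFRSF10C and TNFRSF10D encode receptors that bind the same ligand without a working death domain and are described as decoys. FAS is the receptor of another death ligand and uses the same adaptor. CFLAR encodes cFLIP, a caspase 8 relative without a working protease, which binds in the same complex and limits caspase 8 activation.

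The values were the deposited signal per gene, whose unit and sequencing depth are not stated, and they summed to similar totals, from 49460840 in NC 3 to 53157388 in siKIF15 2. KIF15 itself measured 366.4, 403.6 and 319 in the NC libraries, against 294.8, 333.1 and 363 in siKIF15, a log2 change of -0.13 ± 0.14 (SE; limma adjusted p = 0.57). The targeted transcript was therefore not lower by the test, and every direction given here is that of the libraries labelled siKIF15 against the NC libraries. All 10 prostate luminal markers, among them KLK3, were above 1 in every library, with summed signals of 331758.9 to 341901.8 in NC and 354225.2 to 365667 in siKIF15. By limma, 4 of these markers were higher, among them KLK2, KRT8 and KRT18, and 2 lower (STEAP2 and TMPRSS2). Of the 7 leukocyte markers listed, none passed the test. Their summed signal was 121.9 to 162.7 in NC and 133.7 to 180.2 in siKIF15. CD8A was the highest of the 7, at 96.2, 71.5 and 81.5 in NC and 88.4, 104.3 and 87.7 in siKIF15. PTPRC, the common leukocyte antigen, measured 0.8, 0.1 and 3.8 in NC and 0 in all 3 siKIF15 libraries. In siKIF15 3, the deviation of a gene from its group mean had a Spearman correlation of -0.74 with the GC content of its transcripts, against 0.55 and 0.51 in siKIF15 1 and 2 and -0.31 to 0.2 in NC, over 11242 genes, which are not independent replicates.

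DNA sequences are shown for 3 genes. For TNFSF10, the gene with the largest change, the 250 bases before the start are given. The same stretch is given for CASP8 and FADD, which the test did not call. All 3 are RefSeq sequences of build GRCh38.p14, read 5′ to 3′ on the strand of the gene. Capitals mark matches to 3 short motifs searched on both strands: the core of the interferon-stimulated response element (GAAA and GAAA with any 2 bases between), the core of the gamma-activated site (TTC and GAA with any 3 bases between) and a core of NF-kappa B sites (GGGA and CC with any 4 bases between). A further motif, GGGCGG (the SP1 box), was searched and is left in lower case.
TNFSF10, chr3:172523431-172523680, minus strand: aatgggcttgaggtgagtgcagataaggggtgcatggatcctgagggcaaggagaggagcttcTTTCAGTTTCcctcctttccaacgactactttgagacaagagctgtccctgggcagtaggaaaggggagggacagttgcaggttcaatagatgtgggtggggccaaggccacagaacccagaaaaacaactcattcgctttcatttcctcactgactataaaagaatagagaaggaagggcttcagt
CASP8, chr2:201233213-201233462, plus strand: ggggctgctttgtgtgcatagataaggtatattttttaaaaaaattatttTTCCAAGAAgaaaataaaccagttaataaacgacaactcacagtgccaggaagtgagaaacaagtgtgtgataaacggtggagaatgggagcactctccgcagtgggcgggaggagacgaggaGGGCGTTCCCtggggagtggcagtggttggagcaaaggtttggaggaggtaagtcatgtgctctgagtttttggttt
FADD, chr11:70203046-70203295, plus strand: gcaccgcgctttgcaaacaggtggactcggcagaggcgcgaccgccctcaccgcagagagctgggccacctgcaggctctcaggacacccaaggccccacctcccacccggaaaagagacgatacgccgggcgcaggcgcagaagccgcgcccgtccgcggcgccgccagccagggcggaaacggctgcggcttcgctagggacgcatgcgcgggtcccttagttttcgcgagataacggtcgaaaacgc

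The TNFSF10 stretch held 1 match to the interferon-stimulated response element core, TTTCAGTTTC on the gene's strand, from base -187 to base -178 counted back from the start, and no match to the other 3 motifs. The CASP8 stretch shown held TTCCAAGAA from -200 to -192, 1 SP1 box, and GGGCGTTCCC, the NF-kappa B core on the opposite strand, from -77 to -68. It lies at the first of 3 listed CASP8 starts, and the stretches at the other two held none of the 4 motifs. FADD held 2 SP1 boxes and none of the others. RefSeq lists several starts for some genes, and the table gave 12 such stretches for 5 of the 10 genes (TNFSF10, FADD, FAS, CASP8 and CFLAR); the response element core was in 1 of the 12, that of TNFSF10. CFLAR, which the test called higher, had SP1 boxes at some starts and none of the other 3 motifs at any. For CASP10, also called higher, no stretch was given. Of all 35116 stretches of this length in the table, 3.02% held the response element core, 6.57% the gamma-activated site core, 42.6% the SP1 box and 22.6% the NF-kappa B core. A match is a run of letters and was not tested as a binding site.

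TNFSF10 and CASP10 rose clearly, CFLAR rose slightly, and the other 7 genes did not pass the test. TNFSF10 rose 6.72-fold, CASP10 1.95-fold and CFLAR 1.21-fold in the libraries labelled siKIF15, as ratios of group means. Across all 16548 genes tested, 18.0% were called at an adjusted p of 0.05 (limma, Benjamini-Hochberg), 9.66% higher and 8.33% lower, so the 3 calls among 10 genes differ from the overall rate by little more than 1 gene. The 10 genes had a median log2 change of 0.24, against -0.004 over all genes tested. In cells measured in bulk, a change in the share of expressing cells and a change in RNA per cell cannot be told apart.

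**Figure D1:**
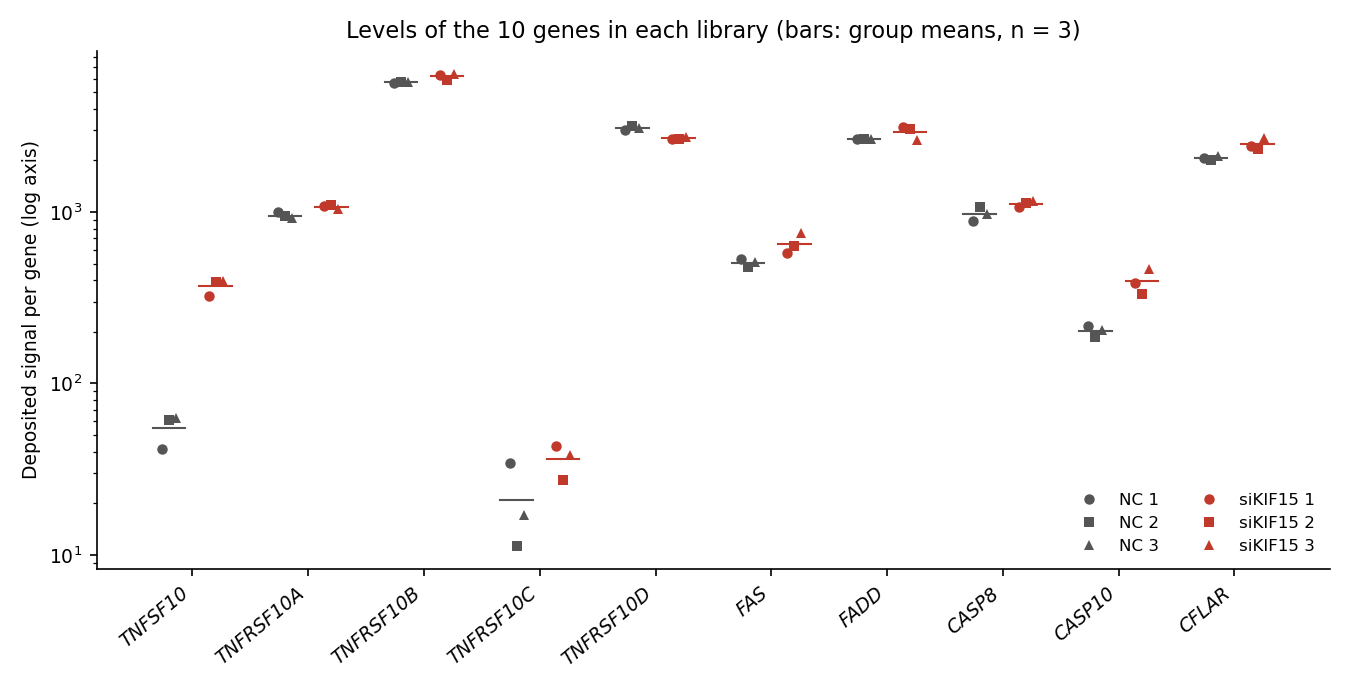
Signal of the 10 genes in each of the 6 libraries on a log axis, with grey symbols for NC, red symbols for siKIF15, a symbol shape for each replicate and bars at the group means (n = 3). Values are as deposited, and whether they are per length is not stated, so heights of different genes are not compared. TNFSF10 lies between 41.2 and 62.7 in NC and between 322.5 and 396.1 in siKIF15, whereas TNFRSF10B stays between 5676.5 and 6351.9 throughout.

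The ligand gene TNFSF10 measured 41.2, 60.9 and 62.7 in the NC libraries, against 322.5, 388.4 and 396.1 in siKIF15. Every siKIF15 library lay more than 5-fold above the highest NC library. The group means were 54.9 ± 11.9 and 369 ± 40.5 (SD, n = 3), and the fitted log2 difference was 2.74, with an SE of 0.20 and a 95% interval of 2.31 to 3.18 (limma adjusted p = 1.06e-07). By size of rise it ranked 166th of the 16548 genes. The rise was between 2.55 and 2.85 in the 6 fits that each left out 1 library.

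Over the 6 libraries, the genes whose profile was most like that of TNFSF10 were IFIH1, PMAIP1, APOL3, BIRC3 and NPTX1. Likeness was the root mean squared difference of log2 signal after subtraction of each gene's NC mean, among 11383 genes with a mean signal of at least 100. It was 0.11 for IFIH1, which encodes the cytosolic RNA sensor MDA5, and 0.19 for PMAIP1, which encodes the BH3-only protein NOXA. IFIH1 measured 233.6, 313.2 and 331 in the NC libraries, against 2012.4, 2052.1 and 2181.9 in siKIF15, so that NC 1 was its lowest control library, as it was for TNFSF10. The difference was 0.21, 0.22 and 0.23 for APOL3, BIRC3 and NPTX1. The 5 genes rose between 5.80-fold and 7.52-fold. Rises near that of TNFSF10, and a likeness within the NC libraries such as that of IFIH1, follow from how the genes were picked.

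The signalling receptor genes moved little. TNFRSF10B, for TRAIL receptor 2, measured 5676.5, 5699 and 5739.2 in the NC libraries, against 6323.4, 5861.7 and 6351.9 in siKIF15. TNFRSF10A, for TRAIL receptor 1, measured 996.1, 944.9 and 919 in the NC libraries, against 1076.6, 1092.3 and 1042 in siKIF15. For both genes the siKIF15 values lay above all NC values, but the log2 changes, 0.11 ± 0.07 and 0.17 ± 0.09 (SE), did not pass (limma adjusted p = 0.27 and 0.22). The 95% intervals, -0.03 to 0.26 and -0.02 to 0.36, leave room for a rise of up to about those upper bounds and for no change.

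FAS, for the receptor of the FAS ligand, measured 530.7, 478.9 and 511.7 in the NC libraries, against 573, 628.7 and 756 in siKIF15. The groups did not overlap, and siKIF15 3 lay furthest above NC. The log2 difference was 0.35 ± 0.12 (SE), with a 95% interval of 0.10 to 0.61 (limma adjusted p = 0.055), just outside the threshold. It was 0.24 without siKIF15 3 (limma adjusted p = 0.10), and 0.32 after a correction for GC content and transcript length that was chosen after seeing the data (limma adjusted p = 0.018). ACTA2, whose annotated span overlaps FAS and whose reads cannot be told from those of FAS there without strand, averaged 164 ± 16.6 in NC and 200 ± 7.72 in siKIF15 and was not called (limma adjusted p = 0.25).

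The decoy receptor genes went in different directions, neither past the threshold. TNFRSF10D measured 3009.3, 3177.2 and 3103.1 in the NC libraries, against 2675.7, 2661.9 and 2727.7 in siKIF15, and it was the only 1 of the 10 genes whose siKIF15 values all lay below the NC values. The log2 difference was -0.20 ± 0.07 (SE), with a 95% interval of -0.35 to -0.06 (limma adjusted p = 0.055). Without siKIF15 3 it was -0.21 and passed (limma adjusted p = 0.015). It also passed after the GC and length correction, at -0.17 (limma adjusted p = 0.013), and with libraries scaled to equal totals, at -0.26 (limma adjusted p = 0.020). In the other 13 of the 16 settings tried it did not pass (limma adjusted p up to 0.18). TNFRSF10C was near the low end of the values, with 34.2, 11.3 and 17 in the NC libraries, against 43.2, 27.3 and 38.2 in siKIF15, and its groups overlapped. Its log2 change was 0.89 ± 0.40 (SE; limma adjusted p = 0.14). The overlap was between NC 1 and siKIF15 2. The change was 1.30 without NC 1, which passed (limma adjusted p = 0.047), 1.07 without siKIF15 2 (0.13) and 0.54 without NC 2 (0.44), neither of which passed. The 4 TRAIL receptor genes lie next to each other in the genome and are close relatives, and how reads shared between them were counted is not stated.

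**Figure D2:**
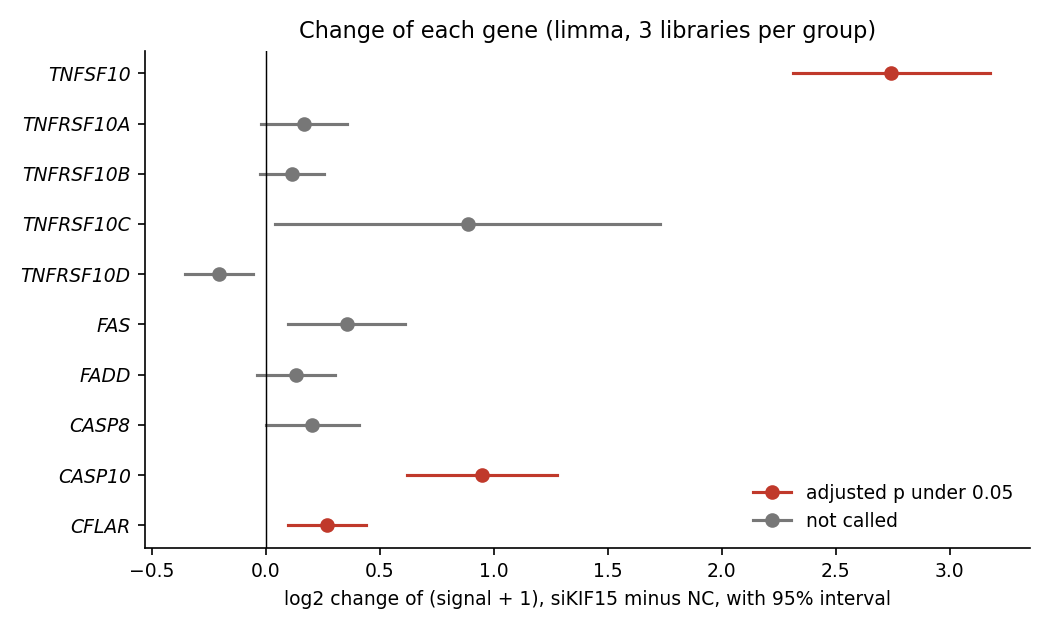
Log2 change of each gene (siKIF15 minus NC, on signal + 1) with its 95% interval from limma, in red where the adjusted p was under 0.05. TNFSF10, CASP10 and CFLAR are in red at 2.74, 0.95 and 0.27, and TNFRSF10D is the only gene left of 0.

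FADD, the adaptor that links death receptors to the caspases, was nearly constant in NC, at 2673.9, 2658.6 and 2660.6. In siKIF15 it stood at 3115.5, 3057.5 and 2618.6, so that siKIF15 1 and 2 lay above NC and siKIF15 3 lay below. The log2 change was 0.13 ± 0.08 (SE; limma adjusted p = 0.29). Without siKIF15 3 it was 0.21 and passed (limma adjusted p = 0.014). FADD had the highest GC content of the 10 genes (58.6%), and after the GC and length correction its change was -0.04 (limma adjusted p = 0.60).

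The caspase genes differed in how far they moved. CASP10, for an initiator caspase that binds FADD, measured 217.3, 185.5 and 204.7 in the NC libraries, against 387.4, 330.3 and 466 in siKIF15. The lowest siKIF15 library was above the highest NC library by more than the range of the NC values. The log2 difference was 0.95 ± 0.16 (SE), with a 95% interval of 0.62 to 1.28 (limma adjusted p = 0.00056), and it was called in each of the 16 other settings tried, with changes of 0.82 to 1.07. CASP8, for the main initiator caspase of this pathway, measured 882.3, 1062.5 and 968.4 in the NC libraries, against 1067.3, 1124.7 and 1156.4 in siKIF15. NC 2 came within 5 units of the lowest siKIF15 library, and the log2 change of 0.20 ± 0.10 (SE; 95% interval 0.00 to 0.41) did not pass (limma adjusted p = 0.16).

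CFLAR, for the inhibitor cFLIP, measured 2060.7, 1997.6 and 2109.3 in the NC libraries, against 2436.6, 2314.3 and 2696.6 in siKIF15. The groups did not overlap, and the log2 difference was 0.27 ± 0.08 (SE), with a 95% interval of 0.10 to 0.44 (limma adjusted p = 0.028). The call ended without NC 1, NC 2, NC 3 or siKIF15 1 (limma adjusted p = 0.10, 0.13, 0.084 and 0.10), with changes of 0.25 to 0.29, and with equal totals (0.21, limma adjusted p = 0.11). In all, the groups did not overlap for 8 of the 10 genes, where 34.8% of all tested genes did not. The siKIF15 values lay above all NC values for 7 (18.3% of all tested genes) and below them for 1 (16.5%).

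CFLAR, CASP10 and CASP8 are consecutive protein-coding genes on chromosome 2, in that order. Of the 3 nearest measured protein-coding genes on either side of them, 1 was called, TRAK2, which fell by 0.36 on the log2 scale (limma adjusted p = 0.0067). The others were ORC2, FAM126B, NDUFB3, ALS2CR12 and STRADB, with log2 changes of -0.43 to 0.10. Of the 3 measured on either side of the TRAIL receptor cluster, R3HCC1 rose by 0.57 (limma adjusted p = 0.00018), and EGR3, PEBP4, RHOBTB2, CHMP7 and LOXL2 were not called. The annotated span of RHOBTB2 overlaps that of TNFRSF10B, and how reads in the overlap were counted is not stated. RHOBTB2 averaged 1899 ± 135 in NC and 1801 ± 102 in siKIF15 (SD).

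Levels of different genes were compared only per kilobase, as signal divided by the median length of the gene's protein-coding transcripts. This comparison holds only if the deposited signal was not already divided by length, which is not stated. In NC the order of the mean signal per kilobase was TNFRSF10B (1944.1), FADD (1447.2), CFLAR (1249), TNFRSF10D (875.2), TNFRSF10A (516.4), CASP8 (509.5), FAS (366.6), CASP10 (97.7), TNFSF10 (30.8) and TNFRSF10C (12.1). TNFRSF10A and CASP8 overlapped there, at 497.8 to 539.6 and 462.9 to 557.5, and no other neighbours in the order did. In siKIF15, TNFSF10 had a mean of 206.6 per kilobase and CASP10 one of 190.3, and the 2 genes overlapped (180.5 to 221.8 and 159.3 to 224.8). The order depends on the transcript used. Divided by the longest transcript of each gene, the NC means put FADD (1447.2) above TNFRSF10B (1376) and moved CFLAR (140.1) below CASP8 (331.4) and FAS (197.8). By that measure the siKIF15 means of TNFSF10 and CASP10 were 188.9 and 66.6 per kilobase.

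Ratios within a library do not depend on how the libraries were scaled, and 4 were compared with exact two-sided permutation tests over the 6 libraries, whose smallest possible p is 0.1. The summed signal of TNFRSF10A and TNFRSF10B over that of TNFRSF10C and TNFRSF10D had log2 values of 1.13, 1.06 and 1.09 in NC and 1.44, 1.37 and 1.42 in siKIF15. Put on a linear scale, the group means of these log2 values were 2.14 and 2.66. The ratios are of signal as deposited, not divided by length here, so only their difference between groups is read. The groups did not overlap, and the difference of 0.32 was larger than either SD (0.04 and 0.04, exact p = 0.1, 0.2 adjusted over the 4 ratios). TNFRSF10D made up nearly all of the decoy sum, with means of 3097 in NC and 2688 in siKIF15. TNFRSF10C, which went the other way, had means of 20.8 and 36.2. The log2 ratio of CASP10 to CASP8 was -2.02, -2.51 and -2.24 in NC and -1.46, -1.77 and -1.31 in siKIF15, a difference of 0.74 with no overlap (exact p = 0.1, adjusted 0.2). On a linear scale, the group means of these log2 ratios were 0.21 in NC and 0.35 in siKIF15. The log2 ratio of CASP8 to its inhibitor CFLAR averaged -1.08 ± 0.16 in NC and -1.15 ± 0.10 in siKIF15 (SD, n = 3), a difference of -0.07 within the spread (exact p = 0.7). Without NC 2 that difference was 0.02. FAS over FADD differed by 0.22 (exact p = 0.4), and by 0.03 without siKIF15 3.

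**Figure D3:**
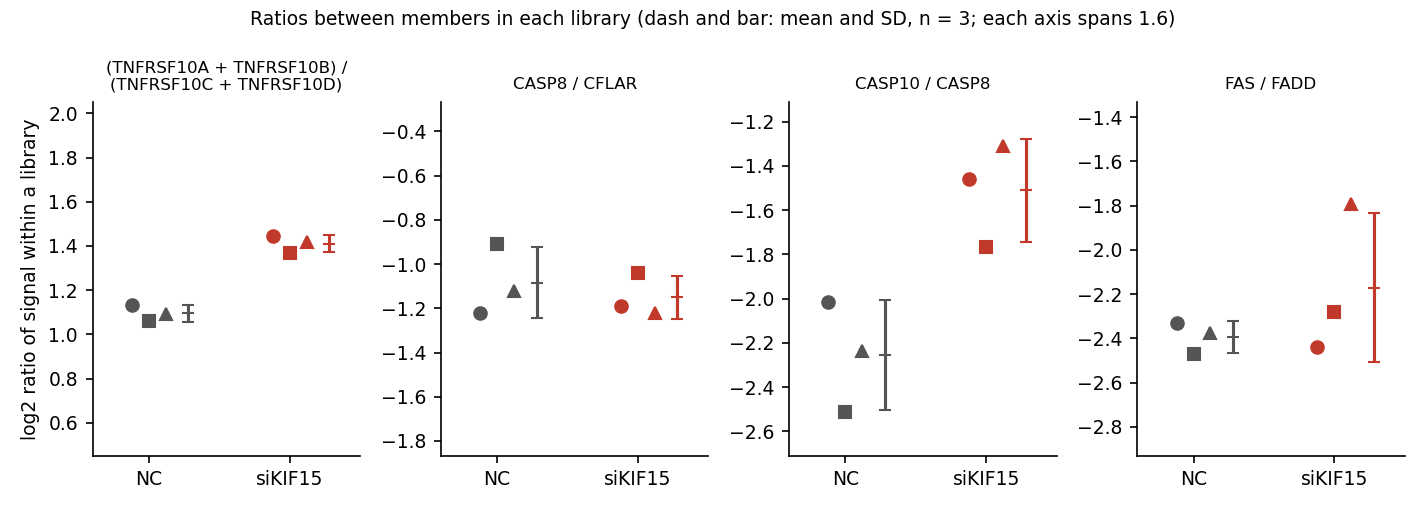
Log2 ratio of signal within each library for 4 pairs of members, with grey symbols for NC, red for siKIF15, and a dash and bar for the mean and SD (n = 3); each axis spans the same range. The groups are apart for signalling over decoy receptors (difference 0.32) and for CASP10 over CASP8 (0.74), and overlap for CASP8 over CFLAR and FAS over FADD. Nearly all of the decoy signal is that of TNFRSF10D.

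Among other death ligands and receptors, 6 of the 14 measured genes rose and none fell (9.66% and 8.33% of all genes tested), with a median log2 change of 0.30 against -0.004 over all genes. TNF, for another death ligand, measured 13.6, 13 and 15.2 in the NC libraries, against 52.6, 64.6 and 55.7 in siKIF15 (log2 change 1.97 ± 0.30 SE, limma adjusted p = 0.00035). Its receptor genes TNFRSF1B and TNFRSF1A, of which TNFRSF1A carries the death domain, rose 2.74-fold and 1.26-fold, TNFRSF1B from 40 ± 3.57 to 110 ± 27.3 (SD, n = 3). The log2 change of TNFRSF1A was 0.13 in place of 0.33 after the GC and length correction and still passed (limma adjusted p = 0.021). TNFRSF12A, for the receptor of TWEAK, rose 1.28-fold, a call lost after the GC and length correction (0.11) and without NC 2 or siKIF15 1. The other calls were LTBR and NGFR. LTBR rose 1.22-fold, and its call was lost when any library other than siKIF15 3 was left out, with equal totals (0.22) and after the correction (0.08). NGFR rose from 9.38 ± 8.61 to 38 ± 16.9, and its call ended without NC 2, siKIF15 1 or siKIF15 2. The FAS ligand gene FASLG had listed values of 0, 0.1 and 3.9 in the NC libraries, against 0 in every siKIF15 library. The list held 3 calls without NC 2 or without siKIF15 1, and its median was 0.12 after the correction.

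Of 20 measured adaptor, ubiquitin ligase and necroptosis genes, 5 rose (BIRC3, TRAF1, TRAF3, PEA15 and TRAF2) and 1, TRAF5, fell, where 9.66% of all genes tested rose and 8.33% fell. The median log2 change was 0.09. BIRC3, for the ubiquitin ligase cIAP2 that holds back caspase 8 at tumour necrosis factor receptors, measured 280.8, 303.3 and 287.1 in the NC libraries, against 1834.1, 1674.3 and 2346.7 in siKIF15 (log2 change 2.73 ± 0.12 SE, limma adjusted p = 1.83e-10). TRAF1, a partner of these ligases, rose 4.48-fold from a mean of 8.61. TRAF3 and TRAF2 rose 1.21-fold and 1.27-fold, and TRAF5 fell by 0.50 on the log2 scale. The calls of TRAF3, TRAF2 and TRAF5 each ended without NC 1, without NC 3 and without siKIF15 1, and those of TRAF2 and TRAF5 also without NC 2 or siKIF15 2. The call of PEA15, which binds FADD, ended without NC 2 or siKIF15 1 and with equal totals (0.23). After the GC and length correction the change of TRAF2 was 0.20 in place of 0.34, and it still passed (limma adjusted p = 0.022). The list's 6 calls became 3 without NC 1, NC 2 or NC 3, 2 without siKIF15 1, 4 without siKIF15 2 and 10 without siKIF15 3. RIPK1 averaged 1644 ± 25.8 and 1728 ± 69.2, the necroptosis effector MLKL 550 ± 47.8 and 532 ± 38, and RIPK3, the kinase between them, measured 0, 2.3 and 0 in the NC libraries, against 1.8, 0 and 2.1 in siKIF15.

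Of 15 measured genes downstream of caspase 8, 2 rose, 1 fell and 12 did not pass, with a median log2 change of -0.02. The 3 calls are close to the overall share of 18.0%. Among those that rose was BAX, a pore protein of the mitochondrial outer membrane. It rose 1.25-fold, but its change was 0.01 after the GC and length correction, and its call was also lost when any library other than siKIF15 3 was left out. DFFB, the caspase-activated DNase, fell by 0.45 on the log2 scale, a call lost without NC 2 (limma adjusted p = 0.06). BID, the caspase 8 substrate that links the receptors to mitochondria, averaged 1518 ± 104 and 1622 ± 237. The 3 calls became 1 without NC 2 and 6 without siKIF15 3.

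Of 16 transcription factor genes described upstream of TRAIL or its receptors, 5 rose and 3 fell, where 9.66% and 8.33% of all genes tested did, and the median log2 change was 0.12. IRF9, IRF7 and IRF1, factors of the interferon response, rose 4.62-fold, 2.93-fold and 2.28-fold. IRF9 measured 336.1, 256 and 347 in the NC libraries, against 1411.1, 1493.2 and 1437.1 in siKIF15. IRF1 measured 1154.8, 1078.7 and 1138, against 2517.2, 2632.6 and 2531.7. ATF4, a stress factor, rose 1.28-fold. FOXO3, MYC and DDIT3 fell by 0.41, 0.25 and 0.29 on the log2 scale. The call of DDIT3 ended without NC 1, NC 3 or siKIF15 1, and that of MYC without NC 1, NC 2, NC 3 or siKIF15 1. After the GC and length correction ATF4, MYC and DDIT3 still passed, with log2 changes of 0.21, -0.39 and -0.48. Whether any of these factors bears on the 10 genes was not tested.

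**Figure D4:**
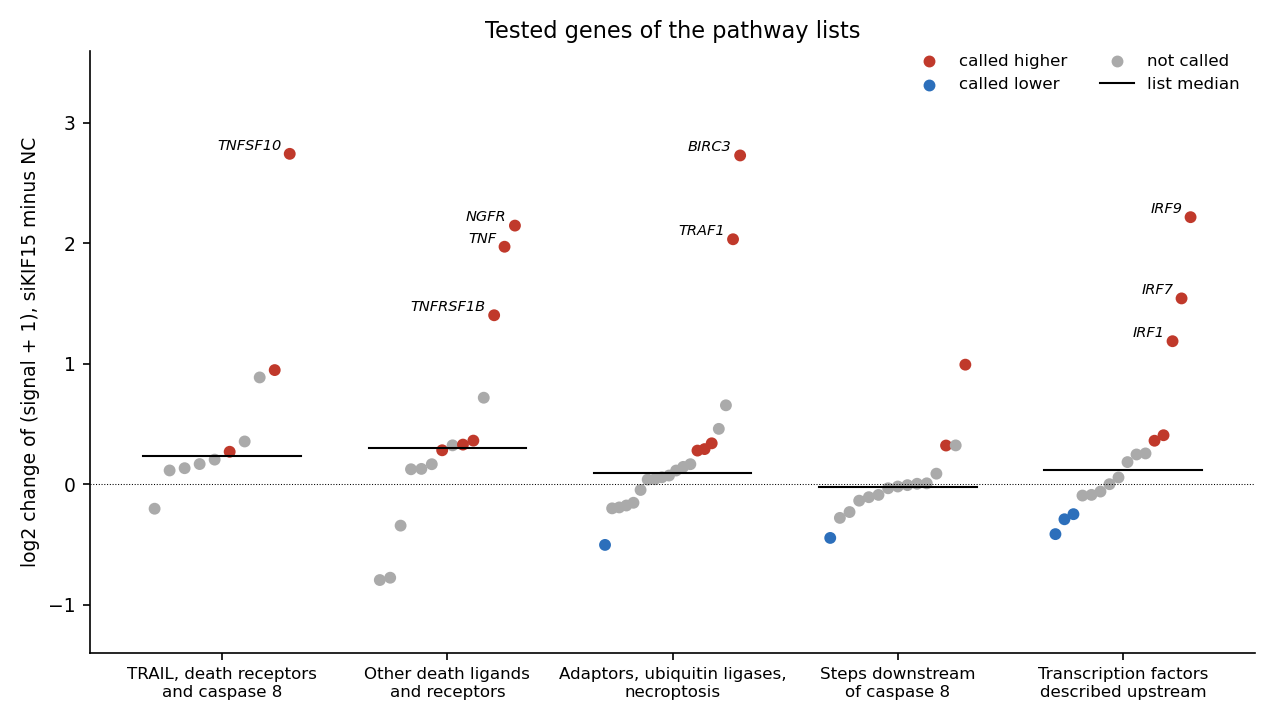
Log2 change (siKIF15 minus NC, on signal + 1) of every tested gene in the 10-gene set and the 4 pathway lists, each dot 1 gene, red for called higher, blue for called lower, grey for not called, with a line at the list median. TNFSF10 (2.74) and BIRC3 (2.73) are the highest points, and the medians lie between -0.02 and 0.30.

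The calls among the 10 genes depended on single libraries to different degrees. TNFSF10 and CASP10 were called in all 16 other settings, and TNFRSF10A, TNFRSF10B and CASP8 were called in none. Without siKIF15 3, 5 genes were called (TNFSF10, CASP10, CFLAR and FADD higher, TNFRSF10D lower), against 3 with all libraries. In the same fit the calls over all genes went from 2978 of 16548 to 5077 of 16573.

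**Figure D5:**
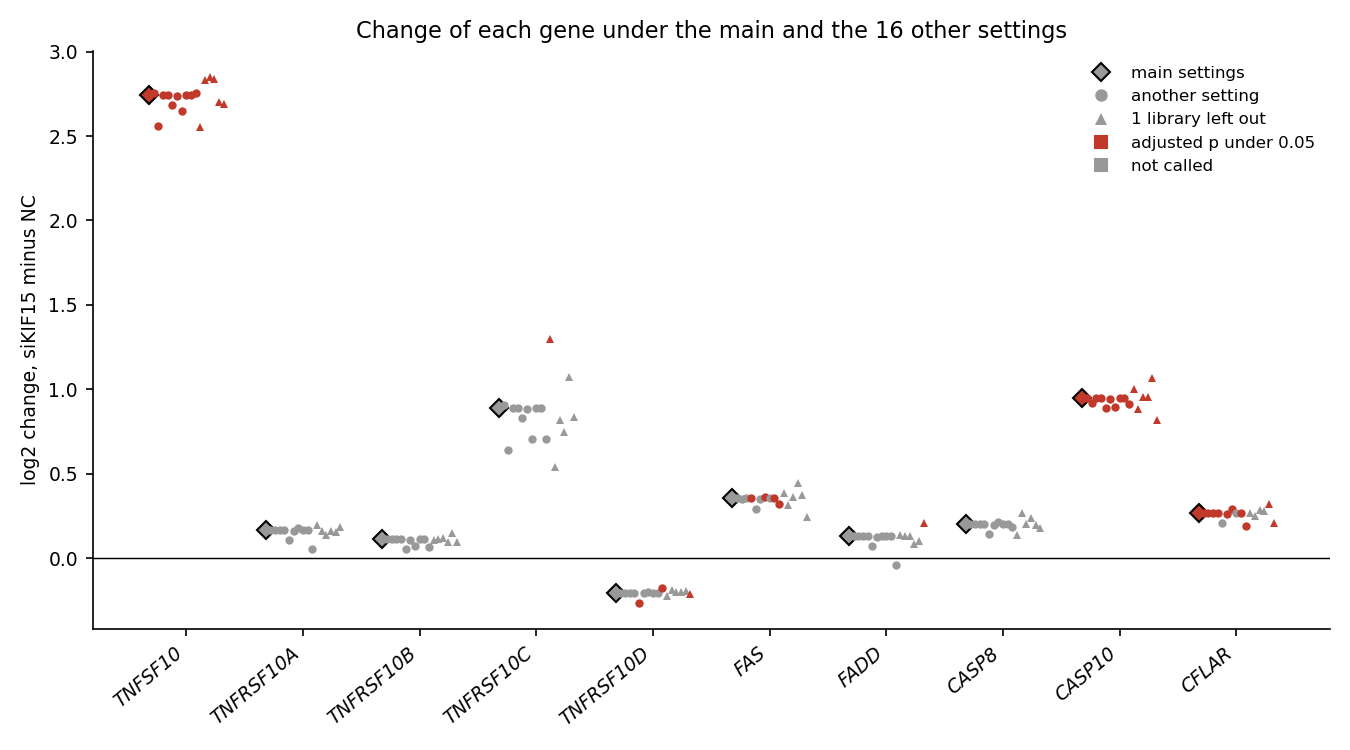
Log2 change of each of the 10 genes under the main settings (diamond), other settings (dots) and with 1 library left out (triangles), red where the adjusted p was under 0.05. TNFSF10 stays between 2.55 and 2.85 and CASP10 between 0.82 and 1.07, all in red, while FADD runs from -0.04 to 0.21.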

How the data were processed

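RNA-seq of 6 libraries (3 NC, 3 siKIF15) was grouped by sample title. Each deposited file gives a signal for every gene symbol; per the file headers only the library name is given, and normalization, counter, human build and annotation are not given in the sources used here. Per the submitters' processing notes, the tool list names Bowtie 0.12.2 and the build list names mm8 and mm9, which are mouse builds. Depth is unknown, so no counting interval is given. limma 3.58.1 (R 4.3.3), with an intensity trend, was run on log2(signal + 1) over the 16548 genes whose NC or siKIF15 mean reached 1, with Benjamini-Hochberg adjustment over all of them; log2 changes understate those of low genes. The code was tested on simulated data. Transcript length and GC content came from GENCODE v29, and neighbouring genes and promoter sequences from RefSeq (GRCh38.p14). Alternatives were other pseudocounts, filters, scalings and variance models, a replicate block, a GC and length correction, and leaving out each library. The 10 genes and the lists were chosen with earlier results of these data known. Named were the 10 genes, KIF15, up to 4 called genes per list whose groups did not overlap, by smallest adjusted p, and the 5 genes most like TNFSF10; other genes were chosen after their values were seen, including the fallen and remaining called list genes, FASLG, RIPK1, RIPK3, MLKL, BID and the neighbours. TNFRSF11B, TNFRSF6B, ZBP1 and 5 leukocyte markers of the lists were not analysed here. Some genes counted in the lists are not reported by name here.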

Additional observations from a re-analysis of the deposited data

How the results depend on the processing

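The depth of the libraries is unknown, and 3 libraries a group limit the precision. Over all genes, 2978 were called with the main settings, 1070 with no variance trend, 4593 after the GC and length correction chosen after seeing the data, and between 1184 and 5077 when 1 library was left out. Scaling to equal totals gave 1204 higher and 1753 lower in place of 1599 and 1379, and moved the median of all genes to -0.06. Of the 10 genes, 3 were called with the main settings, 5 after the correction and 2 to 5 without single libraries. Of the 65 other genes of the 4 pathway lists 23 were called, 9 with no variance trend and 13 to 33 without single libraries. FADD changed sign after the correction (-0.04), and the CASP8 to CFLAR ratio without NC 2 (0.022; range -0.134 to 0.022). With the replicate number as a block, 3184 genes, 4 of the 10 and 26 of the 65 were called, and FAS passed (limma adjusted p = 0.047); the block ended none of the 3 calls, and same-numbered libraries did not deviate together from their group means (r = 0.03, -0.14 and -0.001 over 11384 genes; NC 1 correlated best with siKIF15 2), so the numbers were not read as a pairing. With no variance trend CFLAR lost its call (limma adjusted p = 0.12), as did ATF4, FOXO3 and TNFRSF1A (0.079, 0.081 and 0.07), and FAS gained one with a filter at a mean of 10 (0.045) and with quantile normalization (0.042). The cause of these changes was not tested.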
